A study of Mus musculus with 5 samples.

Results

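The replication-dependent histone genes are the short genes that supply the core histones H2A, H2B, H3 and H4 and the linker histone H1 to newly made DNA. They were taken as the autosomal protein-coding genes of the mouse RefSeq annotation (GRCm38.p6, the assembly also called mm10) whose symbols are H1f1 to H1f6, or H2ac, H2bc, H3c or H4c followed by a number, or start with Hist1h, Hist2h, Hist3h or Hist4h. This gave 63 of 20665 genes, made up of 6 H1, 17 H2A, 16 H2B, 12 H3 and 12 H4 genes. They lie in 3 clusters, defined as runs of histone genes at most 500 kb apart. The chromosome 3 cluster holds 10 genes (chr3:96219885-96270192), the lower chromosome 13 cluster 22 genes (chr13:21715711-22043658) and the upper chromosome 13 cluster 31 genes (chr13:23531044-23934913).

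Chromatin immunoprecipitation was followed by sequencing for 2 Polycomb marks in epidermal progenitors of the basal layer, sorted from the back skin of adult control mice aged 71 days. H2AK119ub is a ubiquitin on a lysine near the end of histone H2A and H3K27me3 is the trimethylation of a lysine in the tail of histone H3, and each was profiled in 2 libraries, with 1 input library beside them. Every library came from mice with the reporters K14-RFP, driven by a promoter of basal keratinocytes, and K10-H2B-GFP, driven by a promoter of suprabasal keratinocytes, and the sorted cells stained for Sca1, were bright for RFP and lacked GFP. The deposited data used here are 1 list of regions per mark, 33155 for H2AK119ub and 15102 for H3K27me3, with positions only. The spread between libraries, the height of the marks and the sequencing depth are therefore unknown, no test could be made, and the absence of a region is not the absence of the mark. H3K27me3 lay at an end of 0 of 6 basal keratinocyte markers, 2 of 4 suprabasal, 4 of 4 fibroblast, 2 of 4 T cell and leukocyte, 1 of 4 melanocyte and 1 of 4 endothelial markers, against 22.1% of all coding genes. H2AK119ub lay at an end of 5, 4, 3, 2, 2 and 2 markers of these lists, in the same order, against 56.4% of all coding genes.

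Replication-dependent histone genes have few or no introns, are transcribed together during DNA synthesis and give messages that end in a stem-loop in place of a poly(A) tail. Many H2A and H2B genes stand head to head and share the short stretch of DNA between their starts. Polycomb repressive complex 1 places H2AK119ub and complex 2 places H3K27me3, and both marks are best known from silent developmental regulators in epidermis and elsewhere. The histone proteins made from these genes carry both marked lysines: H2A genes encode the substrate of the first complex and H3 genes that of the second.

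H2AK119ub and H3K27me3 parted at the histone genes. An H2AK119ub region lay within 1 kb of an annotated end of 46 of the 63 histone genes, or 73.0%, against 56.4% of all autosomal coding genes. An H3K27me3 region lay that close to 0 of the 63, against 22.1% of all coding genes. Both marks together were accordingly found at 0 of the 63 histone genes, against 18.8% of all coding genes. The nearest H3K27me3 region was a median of 19.1 kb away, and H1f4, H1f1 and H2ac22 were among the closest genes, at 1824, 2687 and 1496 bp. H2bc22 was the only histone gene whose annotated body held an H3K27me3 region, of 2.48 kb (chr13:21788744-21791228). That body is annotated over 14079 bp, far beyond the usual length, and the region lay away from both of its ends.

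**Figure D1:**
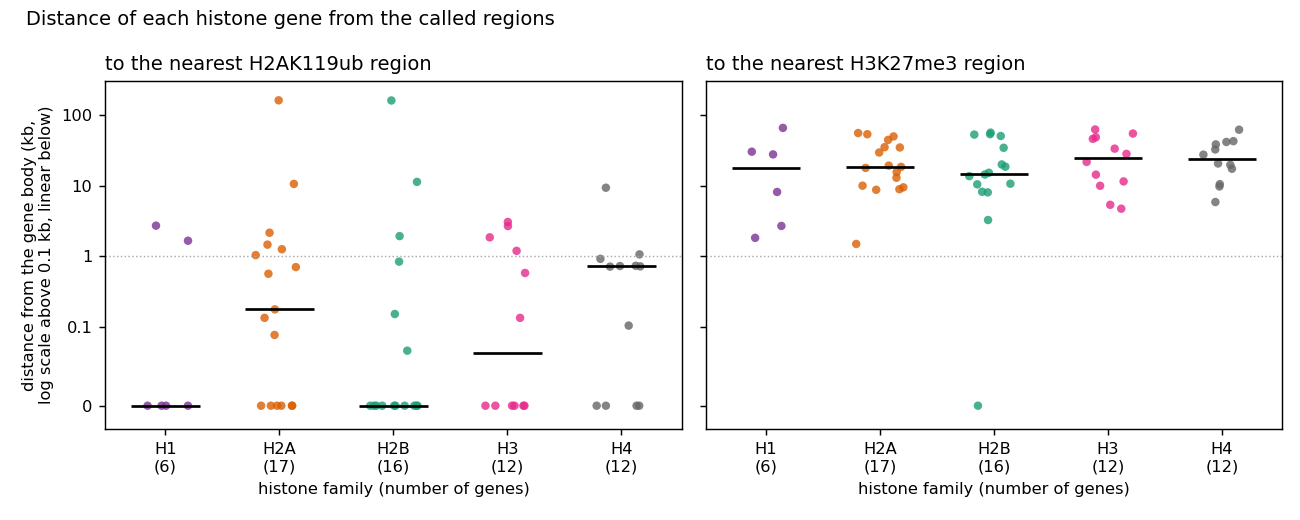
Distance in kb from the body of each of the 63 histone genes to the nearest region of H2AK119ub (left) and H3K27me3 (right), by family; each point is a gene, the bar is the family median, and the dotted line marks 1 kb. Most genes sit below the line for H2AK119ub, while for H3K27me3 H2bc22 alone, at 0, is below it.

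The H2AK119ub count depended on the window. A region covered an annotated end of 29 histone genes, or 46.0%, against 48.7% of all coding genes. A region touched the body of 30, or 47.6%, against 56.6% of all coding genes. The histone genes thus ranked above the genome in the 1 kb window and below it when the gene itself had to be touched. Touching depends on length, and 58 of the 63 histone bodies were at most 1000 bp long. Counted by bases, H2AK119ub covered 30.0% of the histone bodies and 21.5% of the bodies of the other coding genes. The bodies of 18 genes lay wholly inside a region and those of 12 partly, 16 others had a region 70 to 922 bp away, and 17 had none within 1 kb.

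All 5 families held marked and unmarked genes. Among the linker histone genes, which bind DNA between nucleosomes, 4 of 6 had H2AK119ub at an end, and so had 11 of 17 H2A, 13 of 16 H2B, 8 of 12 H3 and 10 of 12 H4 genes. Of the 12 H4 bodies 4 were touched, with a median distance of 718 bp, and of the 17 H2A bodies 6, with a median of 178 bp. The corresponding H2B median was 0 bp, with 10 of 16 bodies touched, but all 5 histone bodies over 1000 bp are H2B genes. Whole bodies lay inside a region at 3 of 12 H4 and 4 of 16 H2B genes. H3K27me3 was at an end of 0 genes in each family, with family medians of the distance between 14.8 kb for H2B and 24.8 kb for H3.

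The 17 genes without H2AK119ub at an end fell into a few places. H2ac18 and H2ac19 form the mirrored centre of the chromosome 3 cluster. H2bc23, H2ac23, H4c17 and H2ac24 lie in the lower chromosome 13 cluster, towards the end of the 118 kb from H2bc13 to H2ac24. They fall in gaps of 28.6 and 21.3 kb between regions. H4c8, H2bc9, H3c7, H1f3, H3c6, H2ac7, H1f2, H3c3 and H3c1 are spread through the upper chromosome 13 cluster, 1065 to 3059 bp from the nearest region. H2bc1 and H2ac1, the head-to-head pair that encodes the testis-specific forms of H2B and H2A, were 159 and 160.1 kb from H2AK119ub and 56.0 and 55.2 kb from H3K27me3. The testis-specific linker histone gene H1f6 differed from that pair, with its whole body inside an H2AK119ub region of 2.93 kb.

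The clusters differed in how much of them H2AK119ub covered. On chromosome 3, 6 regions covered 72.0% of the 50.3 kb span, against 75.4% of the 50 kb flanks and 11.1% of the chromosome, so the cluster was covered about as much as its surroundings. There 0 H3K27me3 regions entered the span, and H3K27me3 covered 42.5% of the flanks. In the lower chromosome 13 cluster 12 H2AK119ub regions covered 59.8% of 328 kb, against 18.7% of the flanks and 16.5% of the chromosome. In the upper cluster 19 regions covered 18.4% of 404 kb, below the 25.9% of its flanks and close to the chromosome's share. That span was uneven. In the 233 kb from H4c8 to H1f1, with 29 histone genes, H2AK119ub covered 29.0%, above the chromosome's share. The H2AK119ub regions in the flanks of the upper cluster, of 9.14, 11.8 and 5.02 kb, all lay on the H4c8 side. The 25.9% therefore pools 2 unlike flanks, and the flank next to H4c8 was covered more than that. H2AK119ub covered 3.92% of the 169 kb from H1f1 to H2bc1, which holds 0 of the histone genes. The 1.19 kb of H2bc1 and H2ac1 had 0%. The 37 regions of the 3 clusters had a median width of 4.31 kb, narrower than the 8.09 kb of all autosomal H2AK119ub regions, and 18 of them touched a histone gene.

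H3K27me3 inside the lower chromosome 13 cluster lay chiefly between its groups of histone genes. There it covered 36.7% of the span in 7 regions. It filled 58.5% of the 202 kb between H2ac24 and H2ac12, a stretch with none of the 63 genes and, at its edge, the histone gene H4bc24, where H2AK119ub covered 63.6%. That stretch holds Pom121l2 and Prss16, which had both marks at an end, and Zfp184, which had H2AK119ub alone. It also holds all 31 transfer RNA genes of the cluster. Of those transfer RNA genes, 28 lay in H2AK119ub and 18 in H3K27me3, whereas the shares of the 391 autosomal ones were 38.9% and 17.6%. In the 8.54 kb from H2ac12 to H2bc11, which holds 5 histone genes next to that stretch, H2AK119ub covered 88.2% and H3K27me3 0%. In the 118 kb from H2bc13 to H2ac24, with 17 histone genes, the shares were 51.4% and 2.11%. The upper cluster had 3 H3K27me3 regions over 6.16% of its span, none of them touching a histone gene.

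Many histone gene starts lay outside the H2AK119ub regions. The outermost listed start was known for 58 of the 63 genes, and 18 of these starts, or 31.0%, lay inside an H2AK119ub region, against 37.0% of all coding starts. Away from the start the order turned round. Regions covered the position 3 kb upstream of 70.7% and 3 kb downstream of 67.2% of the histone starts, against 41.7% and 39.9% of the starts of all other coding genes. The other genes had a shallower dip, with 37.0% of their starts covered. H3K27me3 covered 0 of the 58 histone starts, against 16.2% of all coding starts.

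The dip was present in each cluster, at different levels. On chromosome 3, 8 of 8 positions 3 kb upstream, 0 of 8 starts and 6 of 8 positions 3 kb downstream were covered. In the upper chromosome 13 cluster the counts were 17, 5 and 15 of 28. The lower chromosome 13 cluster had 16, 13 and 18 of 22, so most of its starts lay inside the mark. Starts of neighbouring genes share their surroundings and are not independent of one another. Set against the cluster as a whole the difference was smaller: 69.0% of the 58 starts lay outside H2AK119ub, as did 60.8% of the bases of the 3 spans. By cluster, 8 of 8 starts and 28.0% of bases were outside on chromosome 3. The shares of starts and bases were 40.9% and 40.2% in the lower and 82.1% and 81.6% in the upper chromosome 13 cluster. The bases of the upper cluster include the 169 kb from H1f1 to H2bc1, where H2AK119ub covered 3.92%.

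**Figure D2:**
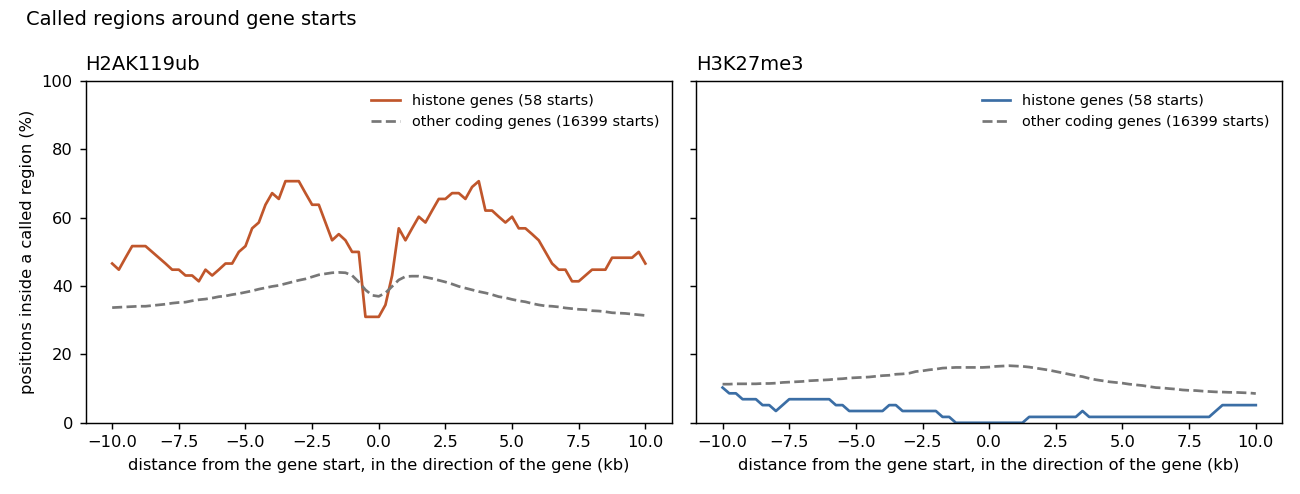
Share of positions inside a called region (%) at distances up to 10 kb from gene starts, in the direction of the gene, for 58 histone starts (solid) and 16399 starts of other coding genes (dashed). H2AK119ub at histone genes is at 31.0% over the start, with 70.7%, its highest share, at 3 kb upstream, and H3K27me3 is at 0 over the start.

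Some starts lay in narrow gaps between regions. Within the spans 34 gaps separated neighbouring H2AK119ub regions, and 21 of them touched a histone gene. The 13 gaps of up to 3 kb made up 2.88% of the spans and held 14 of the 58 starts, or 24.1%. Of these 13 gaps 9 held a histone start, or 69.2%, whereas 7.45% of the 9733 gaps of that size on the 18 autosomes with listed starts held a coding start. Starts were also denser in the spans, at 84.4 per Mb, against 7.18 per Mb over those autosomes. The 1404 bp gap at chr13:23570529-23571932 held the whole of the H2ac8 and H2bc8 pair. A gap of 1008 bp took in the facing starts of H2ac11 and H2bc11, between regions that covered 5.93% and 31.5% of the 2 bodies. A gap of 1053 bp held H4c2 up to its last base, and one of 1642 bp held H2ac4.

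**Figure D3:**
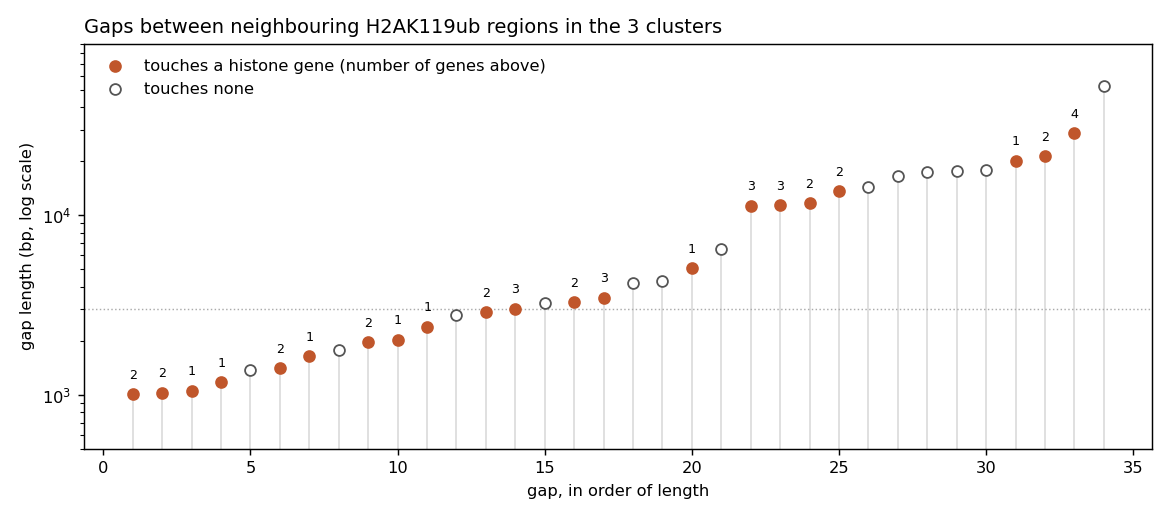
Length in bp (log scale) of the 34 gaps between neighbouring H2AK119ub regions within the clusters, in order of length; filled points touch a histone gene, with the number of genes above, and the dotted line marks 3 kb. Of the 13 gaps below the line 10 touch a histone gene, and the shortest is 1008 bp.

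The stretch shared by a head-to-head gene pair was covered in some pairs and not in others. In 9 head-to-head pairs of an H2A and an H2B gene with listed starts, 163 to 280 bp separated the genes. That stretch was wholly inside H2AK119ub in 3 pairs (H2ac15 with H2bc15, H2ac22 with H2bc22, H2ac12 with H2bc12) and wholly outside in 6. Among these 9, all 3 covered pairs are in the lower chromosome 13 cluster, which also holds 3 of the uncovered ones. H2bc8 with H2ac8, H2bc7 with H2ac7 and the testis-type pair, in the upper cluster, were uncovered. H2ac6 and its neighbour H2bc4, also in the upper cluster, are not among the 9 because H2bc4 has no listed start. A region of 9.16 kb covered the whole H2ac6 body, the bases between these 2 genes and 55.4% of the H2bc4 body. H2ac20 and its neighbour H2bc21, which has no listed start and is not among the 9, were split: a region covered 14 of the 191 bases between them, the whole H2bc21 body and none of H2ac20.

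The DNA just before the starts is shown for 6 genes, 1 wholly inside a region, 2 where a region ended, and 3 in narrow gaps. Each sequence runs up to the base before the start and stops early where it would enter another gene. Capitals mark TATAAA, where the TATA-binding protein sits, CCAAT, bound by the factor NF-Y, and ATGCAAAT, the octamer bound by Oct1 at H2B promoters, each on either strand. H3c10 (chr13:21717378-21717627, plus strand) lay wholly inside a region of 24.1 kb. H3c2 (chr13:23752095-23752344, plus strand) has a region beginning within the window, with 181 of its 250 bases covered, those nearest the gene. H2ac20 (chr3:96220881-96221071, minus strand) has its region on the far side from the gene, over 14 of 191 bases. H2bc11 (chr13:22042950-22043197), H2bc8 (chr13:23571221-23571399) and H4c2 (chr13:23756687-23756936), all on the plus strand, lay in the gaps of 1008, 1404 and 1053 bp. The first 2 of these 3 are the shared stretches of their pairs.
H3c10: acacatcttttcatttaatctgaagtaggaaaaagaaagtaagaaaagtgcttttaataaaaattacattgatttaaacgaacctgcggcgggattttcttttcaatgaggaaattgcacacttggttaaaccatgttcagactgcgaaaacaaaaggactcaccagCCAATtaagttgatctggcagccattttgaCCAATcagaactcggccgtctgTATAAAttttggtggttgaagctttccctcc
H3c2: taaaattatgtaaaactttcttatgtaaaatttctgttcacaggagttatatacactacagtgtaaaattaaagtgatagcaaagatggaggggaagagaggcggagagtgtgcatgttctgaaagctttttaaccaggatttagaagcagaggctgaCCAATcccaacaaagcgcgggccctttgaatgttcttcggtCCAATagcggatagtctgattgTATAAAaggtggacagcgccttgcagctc
H2ac20: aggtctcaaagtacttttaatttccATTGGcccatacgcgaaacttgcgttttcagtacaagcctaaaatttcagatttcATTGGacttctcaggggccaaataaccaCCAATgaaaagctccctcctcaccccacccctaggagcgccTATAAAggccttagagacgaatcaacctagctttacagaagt
H2bc11: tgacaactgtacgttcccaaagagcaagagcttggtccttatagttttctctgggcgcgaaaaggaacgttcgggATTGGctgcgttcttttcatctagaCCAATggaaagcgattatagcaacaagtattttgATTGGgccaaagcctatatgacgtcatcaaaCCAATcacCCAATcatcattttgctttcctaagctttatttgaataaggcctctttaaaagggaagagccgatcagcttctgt
H2bc8: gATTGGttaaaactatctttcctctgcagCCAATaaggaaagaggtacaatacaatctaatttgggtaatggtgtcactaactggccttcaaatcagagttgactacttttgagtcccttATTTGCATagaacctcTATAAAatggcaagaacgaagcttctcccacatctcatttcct
H4c2: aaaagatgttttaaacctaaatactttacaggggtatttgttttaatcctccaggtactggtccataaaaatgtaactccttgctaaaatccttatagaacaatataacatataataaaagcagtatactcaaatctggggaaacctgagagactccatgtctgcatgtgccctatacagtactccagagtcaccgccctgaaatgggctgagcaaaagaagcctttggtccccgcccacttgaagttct
CCAAT copies, on either strand, followed by TATAAA nearer the start are seen in H3c10, H3c2, H2ac20 and H2bc8, which lie inside, at the edge of and outside the regions. H2bc11 has CCAAT copies without TATAAA, and H4c2 holds none of the motifs searched.

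Over the 250 bases before the start, TATAAA was found in 48.3% of the 58 histone promoters and 12.5% of all 16457 coding promoters. CCAAT was found in 82.8% against 36.3%. It was present at all 6 H1, 17 H2A and 14 H2B promoters, at 8 of 10 H3 and at 3 of 11 H4 promoters. The octamer was found at 20.7% against 1.65%, at 6 of 17 H2A and 6 of 14 H2B promoters and at 0 of the H1, H3 and H4 promoters. Facing pairs share these letters, so the promoters are not separate observations. H2AK119ub covered 0 bases of 39 of the 58 windows and all bases of 17, and H2ac20 and H3c2 were the 2 that held a region's edge.

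Near-identical copies can affect where reads are placed, and how reads with several matches were treated is not given in the sources used here. At 9 genes (H3c15, H2ac19, H2ac18, H3c14, H2bc23, H2ac23, H4c17, H4c18 and H2ac24) the window before the start held a run of 75 bases, the read length, also found before another listed start elsewhere. Of these 9 starts 0 were covered, against 4 of the positions 3 kb upstream and 6 downstream. H3c15, H2ac19, H2ac18 and H3c14 are in the chromosome 3 cluster, where 0 of 8 starts were covered. At the 49 genes with no such run the counts were 37 upstream, 18 at the start and 33 downstream. Only windows before listed starts were compared, so these 49 genes may still hold repeated sequence. The coding sequences themselves were not compared, and the part of repeated sequence in the result was not tested.

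Histone genes outside the 63 included some with both marks. Of 4 coding genes known under an older symbol of the Hist families, H2bu2 and H2aw on chromosome 11 (formerly Hist3h2ba and Hist3h2a) had a region of each mark within 1 kb (H2AK119ub over 33.2 kb, H3K27me3 over 12.6 kb), while H4f16 and H4bc24 had neither. Among 14 genes for replication-independent variants, which replace the bulk histones outside DNA synthesis, 3 had both marks, 7 H2AK119ub alone and 4 neither, and 18.8% of all coding genes had both. H1f10, a linker histone, Hils1, a linker histone of spermatids, and Macroh2a2, a macroH2A, had both. H2az1 and H2az2, the genes of H2A.Z, had neither, and H3f3a and H3f3b, the genes of H3.3, had H2AK119ub alone.

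Genes that act on the histone genes and their products seldom had H3K27me3 at an end. Of 23 genes for histone transcription and message processing 14 had H2AK119ub and 2 H3K27me3. Npat, the coactivator of histone transcription, and Casp8ap2, a component of the same nuclear bodies, had neither mark, whereas Slbp, which binds the stem-loop, had H2AK119ub alone over 5.61 kb. Of 21 histone chaperones 14 had H2AK119ub and 1 H3K27me3, with Asf1b and Chaf1a marked by H2AK119ub alone and Asf1a by neither. Of 19 other S phase genes 10 had H2AK119ub and 2, Rrm2 and Cdc45, also H3K27me3. These shares can be read against 56.4% and 22.1% of all coding genes.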

How the data were processed

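The deposited tables give, per the file headers, the chromosome, start and end of each region, a position and no other value: no score, count, fold or p-value. The submitters' processing notes name Bowtie2 2.3.3.1, SAMtools 1.9 and mm10. Neither the peak caller with its settings, nor whether the input or merged libraries were used, is given in the sources used here. Starts were read as counted from 0 and shifted to positions counted from 1. Genes came from RefSeq (GRCm38.p6) without strand or exons. Strand, starts and the sequences came from the RefSeq promoter table, which listed 16457 of the 20665 autosomal coding genes and 58 of the 63 histone genes, and none on 1 of the 19 autosomes. A gene had a mark where a region lay within 1 kb of either annotated end. Shares of all genes are given as background and no test was run. Overlap was at least 1 bp, and the overlap code was tested on simulated regions. Python 3.11.15, NumPy 2.4.6 and pandas 2.3.3 were used. All 63 genes were described, and those named singly were chosen with their values known. The histone genes and the other gene lists were chosen with earlier results of these data known.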

Additional observations from a re-analysis of the deposited data

How the results depend on the processing

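The 46 histone genes with H2AK119ub within 1 kb of an end became 29 with a region over the end, 30 with a region in the body, 21 with a region over at least 50% of the body and 20 with the widest 50% of regions. Leaving out the lower chromosome 13 cluster gave 28 of 41, and leaving out the upper one 26 of 32. The other alternatives tried moved the count by less than 1.5 times, up to 58 with a window of 5 kb. The counts for H3K27me3 and for both marks, 0 in the text, became 6 with a window of 5 kb, 1 with a region in the body and 2 of 67 with the genes under older symbols, and stayed at 0 under the other 9 alternatives. H2AK119ub covered 39.2% of the spans, and 39.4% with 50 kb flanks, 41.8% with clusters split at 100 kb and 27.5% with the widest 50% of regions. For H3K27me3 the 18.6% became 20.2%, 3.83% and 15.8%. Clusters left out, older symbols and starts read as counted from 1 were alternatives chosen after seeing the data. No paired analysis was possible because each mark has 1 list of regions with no library columns. Neither list shows replicate error or depth, so narrow gaps cannot be weighed against sampling noise.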
